A study of Mus musculus with 33 samples.

Results

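The contractile machinery of smooth muscle, as 10 genes, Acta2, Actg2, Myh11, Myl9, Mylk, Tpm2, Tagln, Cnn1, Smtn and Des, was followed across the stromal cells of the mouse colon. They were chosen by symbol, each symbol matched 1 row, and they make up 10 of the 31053 genes in each of 3 single-cell RNA libraries. The labels list 33 samples in all, and the other 30, of chromatin accessibility and bulk RNA, were not analysed here. All cells came from adult mice of both sexes that carry PdgfraH2BeGFP, a nuclear green fluorescent protein at the Pdgfra locus. The 2 GFP-low libraries, replicates 1 and 2, hold cells sorted by their level of that reporter, and the single whole mesenchyme library, whose genotype is labelled control, holds cells without EpCAM and CD45. Before digestion the outer muscle layer was taken off. Whether any smooth muscle-like cells still came from that layer was not tested. The labels do not tie the libraries to particular animals, so spread between the GFP-low libraries may be technical.

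Smooth muscle shortens when calcium and calmodulin switch on myosin light chain kinase (Mylk), which phosphorylates the regulatory light chain (Myl9) and lets the heavy chain (Myh11) pull on filaments of smooth muscle actin (Acta2, Actg2). Tropomyosin (Tpm2), calponin (Cnn1), transgelin (Tagln) and smoothelin (Smtn) sit on those filaments, and desmin (Des) forms the intermediate filaments that tie them to the cell's dense bodies. Pericytes wrap capillaries and share much of this machinery. Telocytes, here the Pdgfra-high cells beneath the epithelium, and fibroblasts carry parts of it and are known in the gut chiefly as sources of signals for epithelial stem cells.

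Many of these genes are read through CArG boxes, sites of the serum response factor with the letters CC, a core of A and T letters, and GG. The 250 bases before a listed start site of each gene were searched on both strands. The search was for CC, 6 letters of A or T, and GG. A match with 1 letter of the core not A or T was also taken. A promoter sequence was matched for 7 of the 10 genes (all but Actg2, Tagln and Myh11). Acta2 and Myl9 each held a pair of matches, shown here 5′ to 3′ with the match in capitals because these 2 genes are followed through all comparisons. The sequences come from RefSeq, build GRCm38.p6.
Acta2, chr19:34255438-34255467, minus strand: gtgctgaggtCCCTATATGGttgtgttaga
Acta2, chr19:34255388-34255417, minus strand: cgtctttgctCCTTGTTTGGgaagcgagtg
Myl9, chr2:156775293-156775322, plus strand: caagcagaggCCTAATAAGGccgggctggc
Myl9, chr2:156775355-156775384, plus strand: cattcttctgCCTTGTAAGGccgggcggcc

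The Acta2 matches begin 84 and 34 bases before the start site of the promoter table, and the Myl9 matches 161 and 99 bases before it. Only the first Myl9 match has a core made of A and T alone. Among 32851 promoter windows of the same length 1.47% held a match with a pure core, 8.59% held at least 1 match of either kind, and 0.670% held 2 or more. Des, Cnn1, Mylk, Tpm2 and Smtn had no match in this window. The Mylk window, chr16:34784700-34784949, lies inside the annotated gene, which starts at 34745199 on the plus strand. Both Acta2 matches also lie inside the annotated gene, which ends at 34255585 on the minus strand. The Myl9, Cnn1 and Tpm2 windows run into their annotated genes in part. The remaining genes without a sequence here lie on chromosomes 6 (Actg2), 9 (Tagln) and 16 (Myh11).

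The libraries held 4834, 6025 and 6793 cells (GFP-low replicate 1, GFP-low replicate 2, whole mesenchyme) with 39190629, 52313765 and 41863444 unique molecular identifiers (UMIs, each counting 1 captured RNA molecule). Median UMIs per cell were 6446.5, 7025 and 4429. Pairs of libraries shared 6 to 11 cell barcodes, against 4.29 to 6.02 that chance would give. Levels below are CPM, the UMIs of a gene scaled to the total of its cell class, with exact Poisson 95% intervals that cover counting error only. The kit reads the 3′ end of each RNA, so levels were compared within a gene and not between genes.

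Cells were clustered without the 10 genes, and 17 of the 18 clusters were named by markers. In whole mesenchyme 146 cells were smooth muscle-like, 84 pericyte-like, 1546 telocyte-like, 514 Cd81-high fibroblast-like and 3477 Cd81-low fibroblast-like. The GFP-low libraries, whose gate selects on the Pdgfra reporter, held 2 and 4 smooth muscle-like cells, 0 and 1 pericyte-like cells and 25 and 15 telocyte-like cells. Their fibroblasts numbered 3468 and 4159 Cd81-high and 1220 and 1386 Cd81-low cells. Different clusters hold most of a fibroblast class in each library. Cd81-high cells lay mostly in clusters 1 and 3 in GFP-low replicate 1 and in clusters 0 and 7 in GFP-low replicate 2, and spread over 5 clusters in whole mesenchyme. Cd81-low cells lay mostly in cluster 8, in clusters 4 and 6, and in cluster 2 of the same 3 libraries.

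The labels by marker held, with limits. Pericyte-like cells had UMIs of all 11 pericyte markers, led by Rgs5 with 5851 CPM, against 117 CPM in smooth muscle-like cells. Smooth muscle-like cells had Hhip at 1366 CPM, against 0 in pericyte-like cells, but 4 of their 14 markers were at 0. They also held the 10 markers of Cd81-low fibroblasts at a summed 9142 CPM, against 3683 CPM for their own markers. Telocyte-like cells had their own markers at a summed 4127 CPM, against 1236 CPM in Cd81-low cells, and those of Cd81-low fibroblasts at 12989 CPM. In Cd81-low cells those 10 markers summed to 16639 CPM, and the part of such RNA in the smooth muscle-like values was not tested.

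All 10 genes together took 3.16% of UMIs in smooth muscle-like cells and 1.53% in pericyte-like cells of whole mesenchyme. Telocyte-like cells followed with 0.242%, Cd81-low fibroblasts with 0.0599% and Cd81-high fibroblasts with 0.0255%. Of the 10 genes 9 were highest in smooth muscle-like cells and Des was highest in pericyte-like cells. Among 6889 other genes outside the clustering, 28.4% were highest in smooth muscle-like and 29.4% in pericyte-like cells, the 2 classes with the fewest cells.

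**Figure D1:**
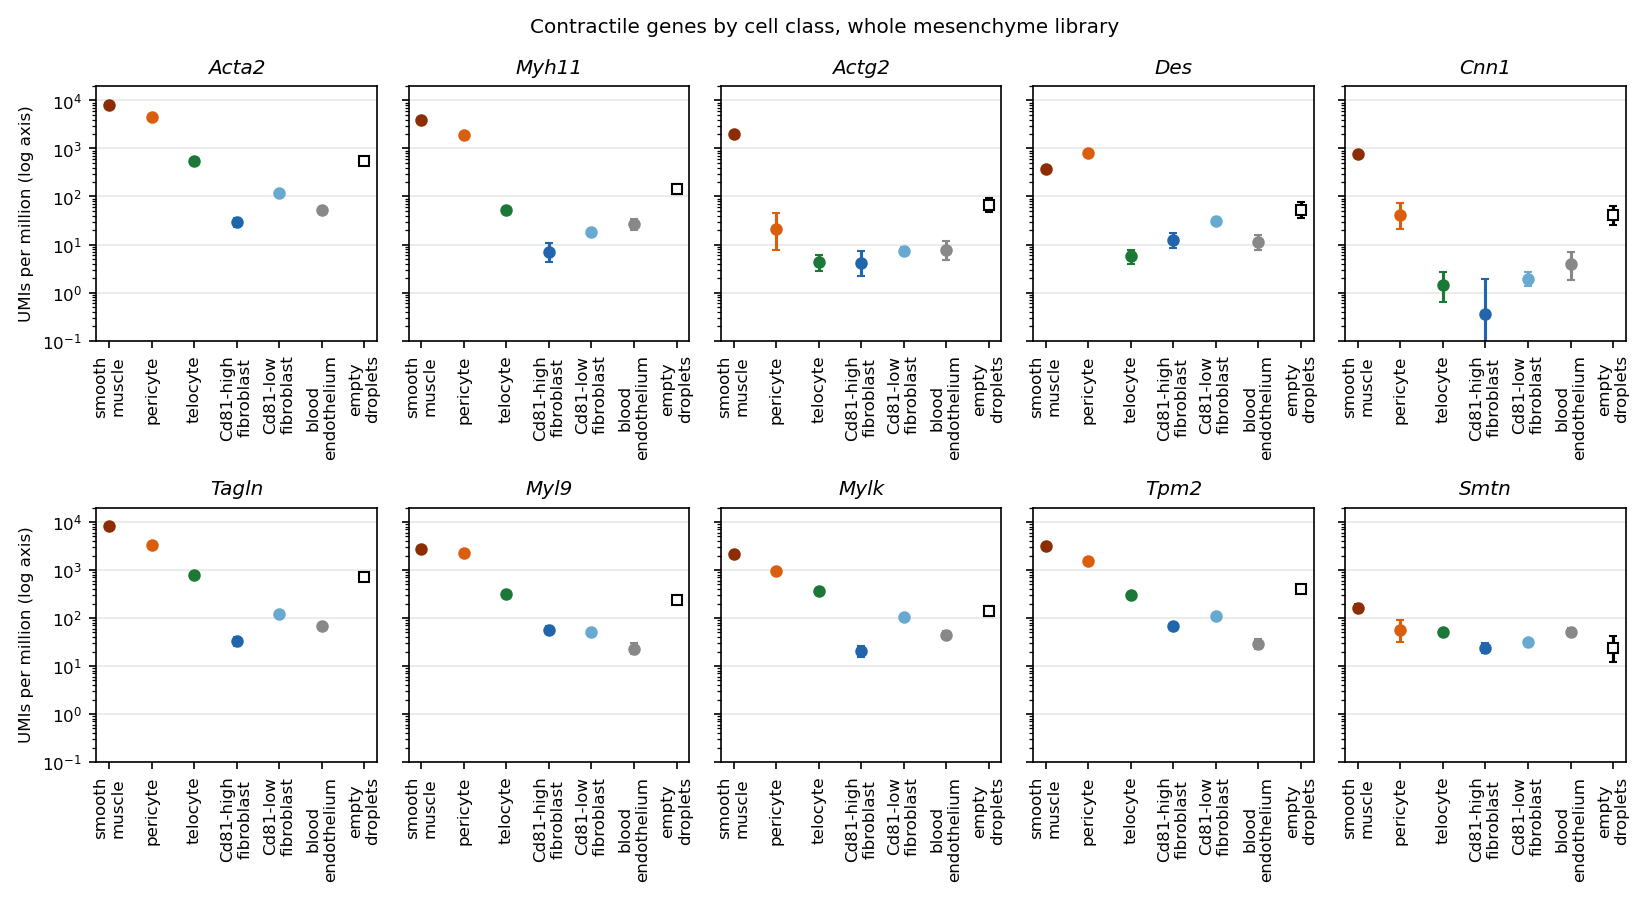
Level of each gene in 5 stromal classes and blood endothelium-like cells of whole mesenchyme, in CPM on a log axis with Poisson 95% intervals as bars, beside the level in empty droplets as open squares. The 10 genes take 3.16% of UMIs in smooth muscle-like cells and 0.0255% in Cd81-high fibroblasts, and Des alone peaks in pericyte-like cells.

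Free RNA limits how low a level can be read. Droplets with 10 to 100 UMIs, which hold no cell, carried Acta2 at 38.6, 32.4 and 559 CPM in GFP-low replicate 1, GFP-low replicate 2 and whole mesenchyme. The 10 genes summed to 316, 248 and 2373 CPM there, so whole mesenchyme had the most free contractile RNA. Genes of foreign cell types put the free share of UMIs at 4.91% in smooth muscle-like, 8.28% in pericyte-like, 3.34% in telocyte-like, 2.36% in Cd81-high fibroblasts and 4.23% in Cd81-low fibroblasts of that library. At those shares free RNA would give Acta2 27.4, 46.3, 18.7, 13.2 and 23.7 CPM. Blood endothelium-like cells, which line vessels and are not contractile muscle, were set beside each gene for comparison, and not as a floor. They had Acta2 at 52.3 CPM, where free RNA would give 23.0 CPM. Their Smtn, at 52.3 CPM, was above the 23.7 CPM of the empty droplets of whole mesenchyme. A level below that of blood endothelium-like cells can therefore still lie above free RNA.

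Among the actins, Acta2 separated all 5 classes. It had 8169 CPM (7941 to 8401) in smooth muscle-like cells, 4432 CPM (4192 to 4682) in pericyte-like cells, 550 CPM (532 to 569) in telocyte-like cells, 29.0 CPM (23.1 to 35.9) in Cd81-high fibroblasts and 120 CPM (115 to 125) in Cd81-low fibroblasts. The smooth muscle level was 1.84-fold (1.73 to 1.96) that of pericytes and 14.8-fold (14.2 to 15.5) that of telocytes. No pair of neighbours in this order had overlapping intervals. The Cd81-high level lay below the 52.3 CPM of blood endothelium-like cells and above the 13.2 CPM of the free RNA estimate.

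Actg2, the enteric form of smooth muscle actin, was nearly confined to the smooth muscle-like class among the 5. It had 1972 CPM in smooth muscle-like cells, against 20.8 CPM in pericyte-like cells, a 94.7-fold difference (43.4 to 259) that rests on 6 UMIs in pericytes. Telocyte-like, Cd81-high and Cd81-low cells had 4.23, 4.19 and 7.39 CPM, and blood endothelium-like cells 7.74 CPM. Those 3 classes lay at or below the level of blood endothelium-like cells.

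The myosin genes split from each other among the lower classes. Myh11 had 3825 CPM in smooth muscle-like cells, 1909 CPM in pericyte-like cells, 51.7 CPM in telocyte-like cells, 6.98 CPM in Cd81-high and 18.3 CPM in Cd81-low fibroblasts, with blood endothelium-like cells at 26.3 CPM. Myl9 had 2778, 2273, 314, 57.2 and 51.2 CPM in the same 5 classes, with blood endothelium-like cells at 22.8 CPM. Mylk had 2187, 937, 360, 20.6 and 107 CPM, with blood endothelium-like cells at 44.1 CPM. Myh11 in telocyte-like cells was 1.96-fold (1.51 to 2.59) that of blood endothelium-like cells. Against blood endothelium-like cells Myl9 was above in both fibroblast classes, Mylk above in the Cd81-low class and below in the Cd81-high class, and Myh11 below in both.

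Of the genes whose products bind thin filaments, Cnn1 was the most restricted. It had 769 CPM in smooth muscle-like cells against 41.6 CPM in pericyte-like cells, an 18.5-fold difference (10.5 to 36.0). The other 3 classes had 0.349 to 1.96 CPM and blood endothelium-like cells 3.87 CPM. Empty droplets of whole mesenchyme held Cnn1 at 41.5 CPM. At the free RNA shares given above, the Cnn1 levels of those 3 classes lay near or below free RNA. Tagln had 8256, 3297, 779, 32.8 and 120 CPM in smooth muscle-like, pericyte-like, telocyte-like, Cd81-high and Cd81-low cells. Tpm2 had 3097, 1503, 303, 67.4 and 111 CPM in the same classes. Blood endothelium-like cells had 66.6 CPM of Tagln and 28.6 CPM of Tpm2, so Tpm2 was above it in both fibroblast classes and Tagln in the Cd81-low class alone. Smtn was flat by comparison, with 163 CPM in smooth muscle-like cells and 24.1 to 55.5 CPM in the other 4 classes, beside 52.3 CPM in blood endothelium-like cells. All 5 Smtn levels were above the 0.560 to 1.96 CPM that free RNA would give.

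Des ran against the others. Smooth muscle-like cells had 370 CPM (323 to 422) and pericyte-like cells 795 CPM (695 to 905), a smooth muscle over pericyte ratio of 0.47 (0.39 to 0.56). Telocyte-like cells had 5.64 CPM, under the 11.2 CPM of blood endothelium-like cells. Cd81-high fibroblasts had 12.2 CPM, close to that level, and Cd81-low fibroblasts 31.4 CPM, which was 2.80-fold (1.93 to 4.21) that of blood endothelium-like cells.

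Smooth muscle and pericytes were present in number in 1 library only, so these differences have no replicate check. Counted by a fold of 4 or more with at least 10 UMIs in the higher class, 2 of the 10 genes (Actg2 and Cnn1) were higher in smooth muscle-like than pericyte-like cells, where 4.37% of 3753 genes were. Against telocyte-like cells, 9 were higher in smooth muscle-like cells (2.39% of all genes) and 7 in pericyte-like cells (2.74%). Against Cd81-low fibroblasts, 10 were higher in smooth muscle-like cells (2.05% of all genes) and 8 in pericyte-like cells (2.68%). The genes not counted for pericytes over telocytes were Smtn (1.10-fold, 0.62 to 1.81), Mylk (2.61-fold) and Actg2, whose 4.92-fold ratio (1.66 to 12.2) rests on 6 pericyte UMIs. Over Cd81-low cells they were Smtn (1.76-fold) and Actg2 (2.82-fold).

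The share of cells with a UMI was compared after thinning every cell to 1000 UMIs. Acta2 was found in 97.3% of smooth muscle-like, 51.2% of pericyte-like, 26.4% of telocyte-like, 3.89% of Cd81-high and 8.34% of Cd81-low cells of whole mesenchyme, and in 3.25% of blood endothelium-like cells. Before thinning these shares were 99.3%, 57.1%, 50.8%, 11.9% and 24.5% in the 5 classes and 9.36% in blood endothelium-like cells. Des was found in 25.3%, 50.0%, 0.388%, 1.17% and 2.79% of the same 5 classes and in 1.12% of blood endothelium-like cells. Any of the 10 genes was found in 100% of smooth muscle-like, 89.3% of pericyte-like, 70.2% of telocyte-like, 19.8% of Cd81-high and 36.4% of Cd81-low cells, against 21.5% of blood endothelium-like cells. Median depths before thinning were 3423, 3150.5, 3988, 5903.5 and 5457 UMIs in the 5 classes and 2898 in blood endothelium-like cells.

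Within classes the cells were far from uniform, and pericyte-like cells varied most. Acta2 per 10000 UMIs had a median of 66.9 in smooth muscle-like cells (quartiles 38.2 and 97.8), and 1 of 146 cells had none. In pericyte-like cells the median was 7.42 with quartiles 0 and 62.1. There 36 of 84 cells had no Acta2 UMI while 30 had over 30 per 10000, so the pericyte mean averages cells with much and cells with none. In telocyte-like cells of whole mesenchyme the median was 1.29 with quartiles 0 and 5.88, and 26 of 1546 cells passed 30.

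**Figure D2:**
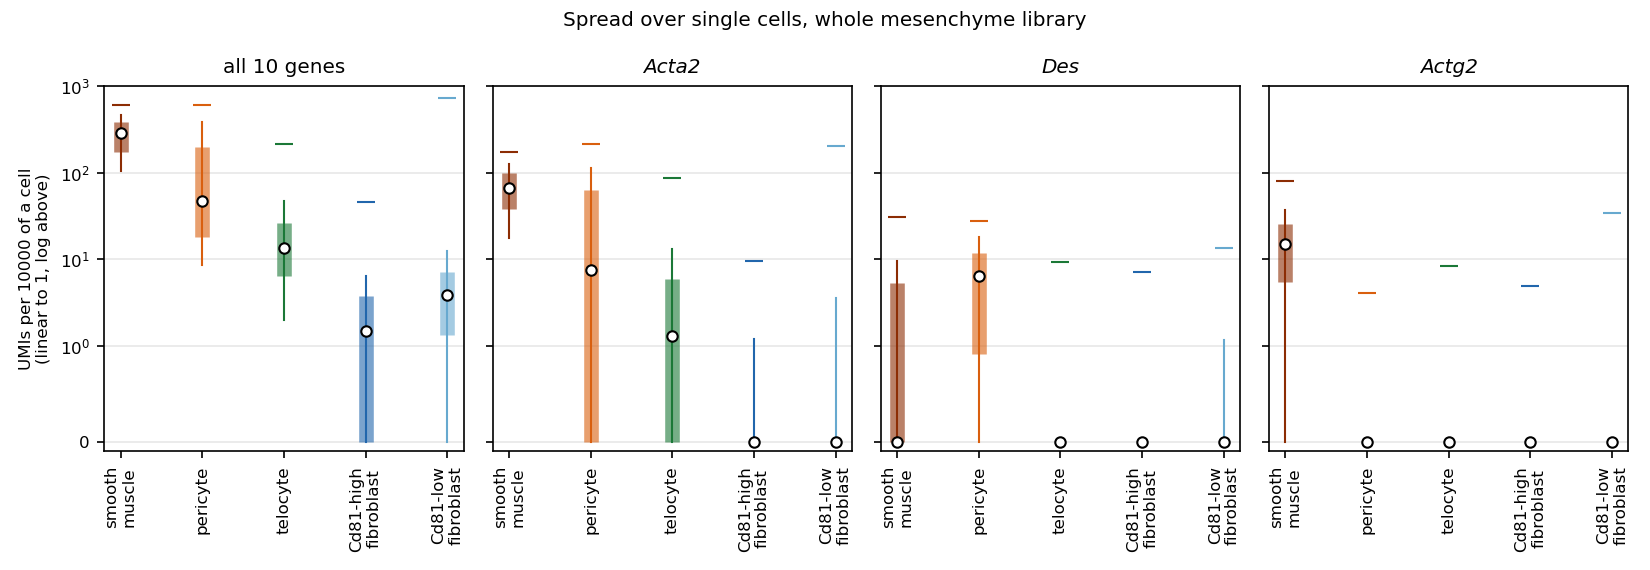
UMIs per 10000 UMIs of a cell in whole mesenchyme for all 10 genes, Acta2, Des and Actg2, by class, on an axis that is linear to 1 and logarithmic above, with the median as a circle, the quartiles as a box, the 10th and 90th percentiles as a line and the highest cell as a dash. Smooth muscle-like cells center on 66.9 for Acta2, and pericyte-like cells spread from 0 to 212.

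The genes came together in the same pericyte-like cells. After thinning, Myh11 was found in 79.1% of the 43 pericyte-like cells with Acta2 and in 9.76% of the 41 without it. Tagln was found in 88.4% and 12.2% of the same cells. Rgs5 was found in 83.7% of those with Acta2 and 100% of those without, so the cells without Acta2 carried the pericyte marker. Des crossed this divide less sharply, with Acta2 in 64.3% of cells with Des and 38.1% of those without. Smooth muscle-like cells had a median of 7 of the 10 genes, pericyte-like cells 3.5, telocyte-like cells 1 and both fibroblast classes 0. At least 5 genes were found in 91.1%, 39.3% and 1.62% of the first 3 classes, and in 12 of 3477 Cd81-low cells.

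Mitochondrial share and depth moved with these levels. Pericyte-like cells with over 10% mitochondrial UMIs (31 cells) gave the 10 genes 2.84% of UMIs, against 0.874% in the 53 others. Smooth muscle-like cells went the other way, with 1.90% in the 48 cells over 10% mitochondrial UMIs and 3.39% in the 98 others. In pericyte-like cells with under 2000 UMIs the share was 0.386%, against 1.68% in deeper ones. Limited to cells of at least 2000 UMIs and at most 10% mitochondrial UMIs, the shares were 3.54% in smooth muscle-like cells (83 cells) and 0.937% in pericyte-like cells (41 cells). These divisions were chosen after seeing the data, and the part of cell quality in the pericyte values was not tested.

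Telocyte-like and fibroblast-like cells occur in more than 1 library and were tested by edgeR's quasi-likelihood test on UMI sums per library and class, with the library as a block. Telocyte-like sums came from GFP-low replicate 1 (25 cells) and whole mesenchyme, fibroblast sums from all 3 libraries. With GFP-low replicate 1 or whole mesenchyme left out, 1 telocyte-like sum remains. Telocyte calls kept or lost in those fits are therefore no check by replicates. All p-values are adjusted by Benjamini-Hochberg over 6354 genes kept out of the clustering, and all 10 genes passed the filter on low counts.

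Against Cd81-low fibroblasts, telocyte-like cells had more Acta2, Tagln, Myl9, Mylk, Tpm2 and Smtn and less Des, while Actg2, Cnn1 and Myh11 did not pass. That makes 6 of 10 genes higher and 1 lower, where 6.45% of all genes were higher and 9.05% lower. The median log2 difference was 1.61 over the 10 genes and -0.06 over all genes. Acta2 had 2847 CPM in telocyte-like cells of GFP-low replicate 1 and 550 CPM in those of whole mesenchyme. In Cd81-low cells it had 117, 106 and 120 CPM in GFP-low replicate 1, GFP-low replicate 2 and whole mesenchyme. The log2 difference was 3.20 ± 0.61 (SE, edgeR adjusted p = 0.00251). Without GFP-low replicate 1 that difference was 1.60 and the call was lost, with 1 telocyte-like sum left. The size and the call thus rest on the 25 cells of GFP-low replicate 1.

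Myl9 had 694 and 314 CPM in the same telocyte-like sums, against 38.6, 28.0 and 51.2 CPM in the Cd81-low sums. Its log2 difference was 3.07 ± 0.23 (edgeR adjusted p = 1.37e-06). Tagln had 1119 and 779 CPM in telocyte-like cells, against 76.5, 53.6 and 120 CPM in Cd81-low cells, with a log2 difference of 3.02 ± 0.32. Mylk differed by 1.72 ± 0.17 on the log2 scale and Tpm2 was 2.84-fold higher. Smtn differed by 0.54 ± 0.15 (edgeR adjusted p = 0.0276), a call that was lost in 8 alternatives.

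Des had 17.2 and 5.64 CPM in telocyte-like cells, against 54.3, 36.9 and 31.4 CPM in Cd81-low cells. Its log2 difference was -2.47 ± 0.24 (edgeR adjusted p = 1.06e-05). Without whole mesenchyme it was -2.06 and the call was lost, with 1 telocyte-like sum left. Myh11 had 138 and 51.7 CPM in telocyte-like cells, against 5.11, 7.80 and 18.3 CPM in Cd81-low cells. Its log2 difference of 1.78 ± 0.57 missed the threshold (edgeR adjusted p = 0.0534) and passed it in 8 alternatives. Actg2 and Cnn1 did not pass (log2 -1.12 ± 0.50 and -0.56 ± 0.57).

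Against Cd81-high fibroblasts the test called 7 genes higher in telocyte-like cells (11.4% of all genes were higher) and Des lower (15.4% were lower), with a median log2 difference of 2.45 against -0.09 over all genes. Acta2 had 2847 and 550 CPM in telocyte-like cells, against 7.72, 4.25 and 29.0 CPM in Cd81-high cells, a log2 difference of 6.65 ± 0.66 (edgeR adjusted p = 6.45e-06). Myh11, with 138 and 51.7 CPM against 0.243, 0.196 and 6.98 CPM, differed by 5.22 ± 0.79 (edgeR adjusted p = 2.57e-04). Within whole mesenchyme alone the telocyte-like level was 19.0-fold (15.3 to 23.9) that of Cd81-high cells for Acta2. For Myh11 it was 7.40-fold (4.72 to 12.3). The fit over all libraries gave larger sizes, 100-fold and 37.2-fold. In the empty droplets of GFP-low replicates 1 and 2, Acta2 had 38.6 and 32.4 CPM and Myh11 1.96 and 1.35 CPM. The free RNA share of the Cd81-high cells there was 8.50% and 13.5%. At those shares Myh11 in both replicates and Acta2 in replicate 2 lay near free RNA. The sizes from the fit rest in part on those low values. Both sizes also depended on the library left out. Acta2 differed by 4.92 without GFP-low replicate 1 and by 8.27 without whole mesenchyme, and Myh11 by 4.18 and 9.06 with the same libraries left out. Each of these fits holds 1 telocyte-like sum, so only sizes are given. Tagln, Mylk, Myl9 and Tpm2 differed by 5.64, 3.85, 2.58 and 2.33 on the log2 scale and Smtn by 0.97, a call lost without whole mesenchyme (0.73). Des differed by -1.34 ± 0.26, a call lost without the block, without whole mesenchyme and with clusters formed on all genes. Actg2 (0.87 ± 0.64) and Cnn1 (2.83-fold, edgeR adjusted p = 0.240) did not pass. Normalised Actg2 was not higher in telocyte-like cells in either of the 2 libraries compared, so its sign comes from the fit alone.

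**Figure D3:**
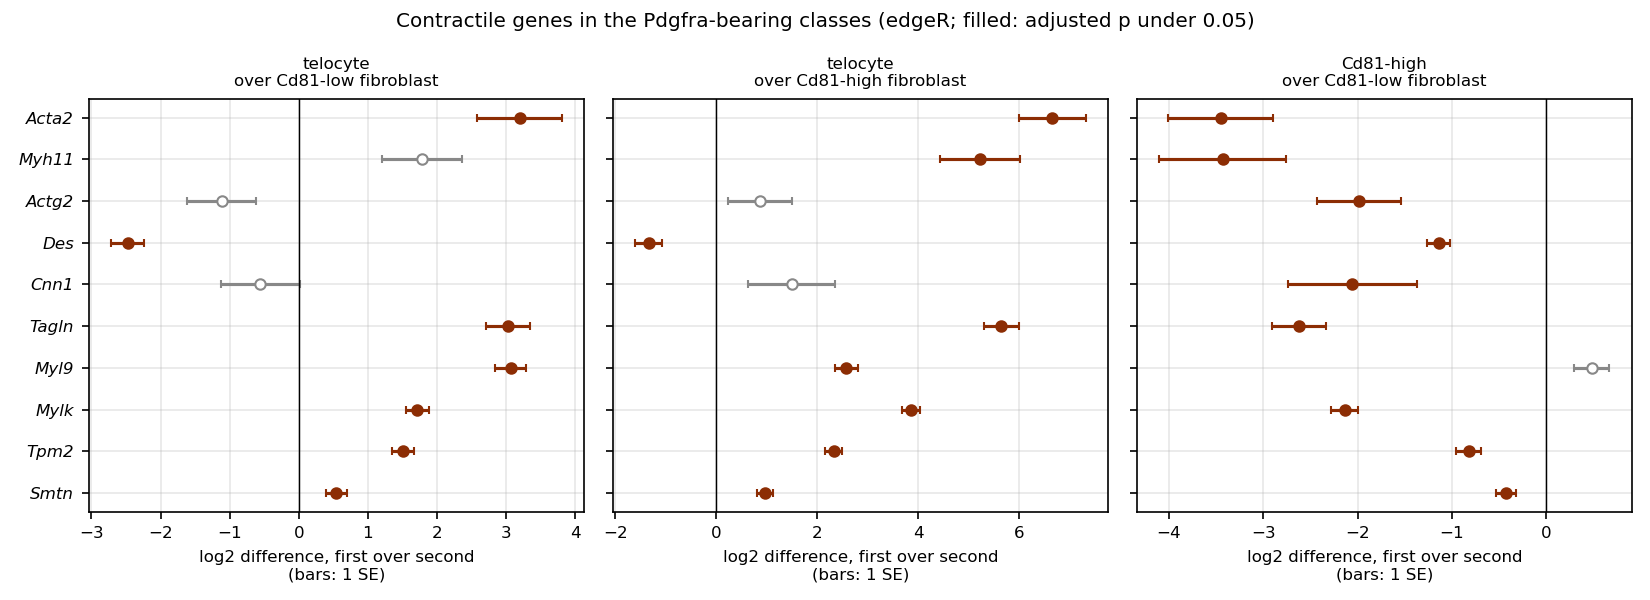
Log2 differences with standard errors from the edgeR fit for the 10 genes in 3 comparisons, with filled points past the adjusted threshold. Filled points right of 0 number 6 and 7 for telocyte-like cells, Des lies left in all 3 panels, and 9 filled points lie left for Cd81-high over Cd81-low fibroblasts.

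The comparison of Cd81-high with Cd81-low fibroblasts showed 9 of the 10 genes lower in Cd81-high cells and none higher (12.9% and 14.6% of all genes). The median log2 difference was -2.02, against 0.04 over all genes. Acta2 fell by 3.45 on the log2 scale (SE 0.56, edgeR adjusted p = 3.45e-04), Myh11 by 3.43, Tagln by 2.62 and Mylk by 2.14. Acta2 fell by 2.82 without GFP-low replicate 2 and by 4.08 without whole mesenchyme, and Myh11 by 2.65 and 4.69, past the threshold each time. Cnn1 and Actg2 fell by 2.05 and 1.98, at whole mesenchyme levels below those of blood endothelium-like cells. For Cnn1 those levels also lay near or below free RNA. Des fell by 1.14, Tpm2 by 0.82 and Smtn by 0.42. Myl9 differed by 0.49 ± 0.19 and did not pass (edgeR adjusted p = 0.0736), with 68.1, 32.1 and 57.2 CPM in Cd81-high cells against 38.6, 28.0 and 51.2 CPM in Cd81-low cells. The gap between these fibroblast classes was wider in the GFP-low libraries than in whole mesenchyme for Acta2, Myh11 and Tagln, 3 of 9 genes tested, where 0.255% of all genes had a lower and 1.85% a higher difference in GFP-low.

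Free RNA bears on the fibroblast values most of all. By the genes of other cell types its share was 57.9% and 49.2% in Cd81-low cells of GFP-low replicates 1 and 2, and 8.50% and 13.5% in their Cd81-high cells. Taken only from cells with under 10 such UMIs, a choice made after seeing the data, the Cd81-low shares were 19.0% and 28.0%. Subtracted at the first shares, 1 of the 10 genes was higher in telocyte-like than Cd81-low cells, 3 were higher in telocyte-like than Cd81-high cells and 3 were lower in Cd81-high than Cd81-low cells. Subtracted at the second, those counts were 4, 7 and 8. Under either subtraction 27 of the 30 values (10 genes in 3 comparisons) passed the filter on low counts and were tested. Acta2 in empty droplets of the GFP-low libraries (38.6 and 32.4 CPM) was below its 117 and 106 CPM in their Cd81-low cells.

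Levels within a class could be set side by side across libraries, without a test, since whole mesenchyme is a single library. Telocyte-like cells had more Acta2 in the GFP-low libraries, with 2847 and 3004 CPM in replicates 1 and 2 against 550 CPM in whole mesenchyme. Tagln had 1119 and 2643 CPM against 779 CPM, Myl9 694 and 698 CPM against 314 CPM, and Tpm2 488 and 910 CPM against 303 CPM. Mylk was close to level (310 and 324 CPM against 360 CPM), as was Smtn (51.7 and 62.3 CPM against 50.6 CPM). Pdgfra, on whose reporter the gate rests, had 585 and 424 CPM in GFP-low telocyte-like cells and 1233 CPM in those of whole mesenchyme. The share of telocyte-like cells with an Acta2 UMI after thinning was 56.0% and 80.0% in the GFP-low libraries and 26.4% in whole mesenchyme. These GFP-low values rest on 25 and 15 cells. The free RNA share of telocyte-like cells was 15.4% and 20.7% in the GFP-low libraries and 3.34% in whole mesenchyme, and the 13 genes of the response to dissociation summed to 11765 and 16942 CPM in GFP-low and 47131 CPM in whole mesenchyme. The part of the gate, of free RNA and of dissociation in these values was not tested.

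The 2 and 4 smooth muscle-like cells of the GFP-low libraries also carried Acta2, with 12901 and 8705 CPM against 8169 CPM in whole mesenchyme. In Cd81-low cells Acta2 differed little between libraries, with 117 and 106 CPM in GFP-low and 120 CPM in whole mesenchyme. In Cd81-high cells it had 7.72 and 4.25 CPM in GFP-low and 29.0 CPM in whole mesenchyme, in the same order as the empty droplets.

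**Figure D4:**
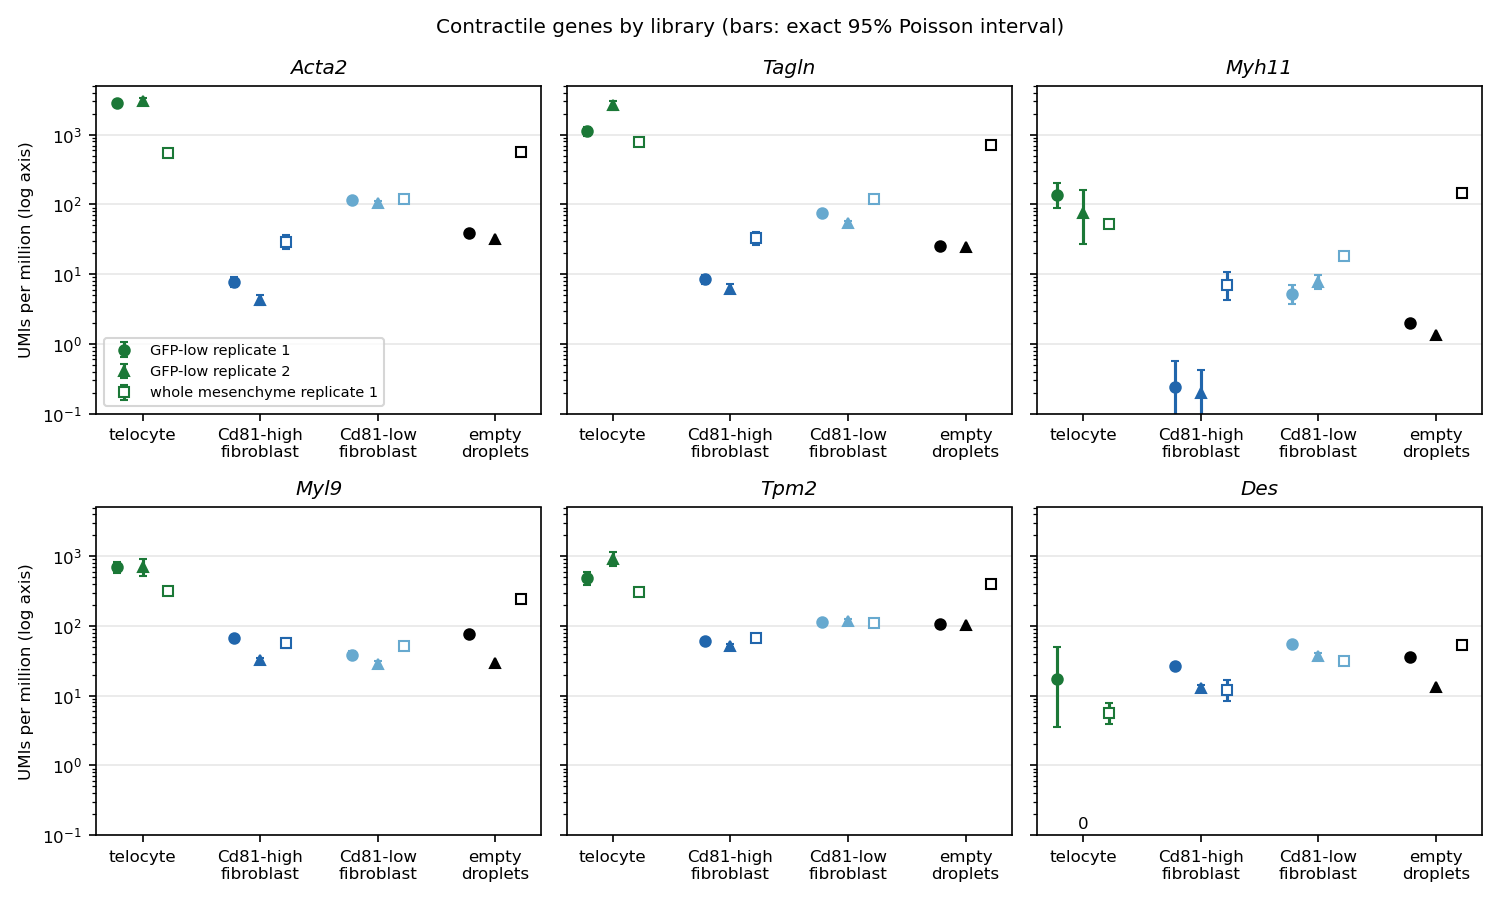
CPM of Acta2, Tagln, Myh11, Myl9, Tpm2 and Des by library in telocyte-like, Cd81-high and Cd81-low cells and in empty droplets, on a log axis with Poisson 95% intervals for the cell classes. Acta2 in telocyte-like cells stands at 2847 and 3004 CPM in the GFP-low libraries and 550 CPM in whole mesenchyme.

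The other genes of the pathway were counted by list, beside the shares of all genes given above, which were 6.45%, 11.4% and 14.6% higher and 9.05%, 15.4% and 12.9% lower in the 3 comparisons. Of the 39 calls of genes named from these lists, 21 were lost with free RNA subtracted at the first shares. At the second shares 6 were lost, and 12 were lost without the replicate block. Of 17 partners of the thin filament and dense body tested, 9 rose and 2 fell in telocyte-like over Cd81-low cells (median log2 0.57), 13 rose and none fell over Cd81-high cells (1.29), and 12 fell and 1 rose in Cd81-high over Cd81-low cells (-0.63). Pdlim3, a partner of alpha-actinin, differed by 2.60, 7.39 and -4.79 in these 3 comparisons. Alpha-actinin (Actn1) and Tpm1 rose by 2.26 and 2.15 over Cd81-high cells. Pgm5, a dense plaque protein, fell by 2.84 in telocyte-like and by 2.49 in Cd81-high cells, both against Cd81-low cells, and the first fell by 11.60 without whole mesenchyme. Lmod1, which nucleates actin filaments, fell by 4.08 in Cd81-high over Cd81-low cells, and its level was 1079 CPM in smooth muscle-like, 451 in pericyte-like and 2.19 CPM in telocyte-like cells of whole mesenchyme.

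Of 17 genes of myosin regulation and calcium, 2 rose and 1 fell in telocyte-like over Cd81-low cells (median log2 0.12), 7 rose and 1 fell over Cd81-high cells (0.22), and 2 rose and 7 fell in Cd81-high over Cd81-low cells (-0.24). Mrvi1, a target of the nitric oxide and cGMP pathway at the calcium store, differed by 2.43, 5.57 and -3.14. Gucy1b1, a subunit of the nitric oxide receptor, rose by 1.27 and 2.18 in telocyte-like cells over the 2 fibroblast classes. Ppp1r14a, an inhibitor of myosin phosphatase, rose 4.01-fold in telocyte-like over Cd81-high cells and fell by 1.88 in Cd81-high over Cd81-low cells. The calcium channel gene Cacna1h fell by 3.34 in telocyte-like and 3.21 in Cd81-high cells against Cd81-low cells. Without whole mesenchyme the telocyte calls over Cd81-low cells were lost for Cacna1h (-8.71) and Gucy1b1 (1.00). In whole mesenchyme 13 of 18 genes of this list were highest in pericyte-like cells and 5 in smooth muscle-like cells, whereas 13 of 18 thin filament partners were highest in smooth muscle-like cells.

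The next list held serum response factor (Srf) itself with its cofactors and other regulators of transcription. Of its 11 genes tested, 1 rose and 1 fell, 2 rose and 2 fell, and 2 rose and 2 fell in the 3 comparisons (medians 0.18, 0.03 and 0.14), counts near the shares of all genes. Myocd, the myocardin coactivator of smooth muscle genes, had 188 CPM in smooth muscle-like, 38.2 in pericyte-like, 0.94 in telocyte-like, 0.698 in Cd81-high and 8.78 CPM in Cd81-low cells of whole mesenchyme. It fell by 3.38 in telocyte-like and by 6.74 in Cd81-high cells against Cd81-low cells, and the telocyte call was lost without whole mesenchyme. Foxf1, a mesenchymal transcription factor, differed by 0.69, 1.33 and -0.65. Mkl1 fell by 0.92 in telocyte-like over Cd81-high cells, and Gata6 rose by 3.65 in Cd81-high over Cd81-low cells. Gata6 was also called lower in telocyte-like than Cd81-high cells, with no UMI in either telocyte-like sum. The Mkl1 call was lost without GFP-low replicate 1 or 2 (-0.71 and -0.80), and that of Gata6 in telocyte-like cells without GFP-low replicate 1 or whole mesenchyme. Foxf1 over Cd81-low cells also lost its call without whole mesenchyme (0.61).

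Of 12 non-muscle counterparts of the same proteins, 4 rose in telocyte-like over Cd81-low cells (median log2 0.32), 6 rose and 1 fell over Cd81-high cells (0.56), and 1 rose and 3 fell in Cd81-high over Cd81-low cells (-0.19). The non-muscle myosin Myh10 rose by 0.91 and 0.92 and the calponin Cnn2 by 0.60 and 1.74 over the 2 fibroblast classes. Myl12a rose by 0.73 over Cd81-low cells and Myh9 by 1.76 over Cd81-high cells. In Cd81-high over Cd81-low cells Myh9 fell by 1.21, Cnn2 fell by 1.13 and the cytoplasmic actin Actg1 rose by 0.76. Calls were lost without GFP-low replicate 1 for Cnn2 (0.46) and Myl12a (0.64) over Cd81-low cells, and without GFP-low replicate 2 for Actg1 (0.63). Of 13 genes of the response to dissociation, none passed in telocyte-like over Cd81-low cells (median -0.34), 5 fell over Cd81-high cells (-1.01), and 1 rose in Cd81-high over Cd81-low cells (0.49). The fallen genes named by size were Atf3 (-1.54), Egr1 (-1.47) and Zfp36 (-1.43), and Atf3 was the riser (1.20). Without GFP-low replicate 1, with its 25 telocyte-like cells, the 3 falls were 0.61, 0.37 and 0.41 and none passed, and without whole mesenchyme they were 2.81, 2.95 and 3.10. Zfp36 was lost also without GFP-low replicate 2, and Atf3 in Cd81-high over Cd81-low cells without either GFP-low library (0.92 and 1.05).

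Across the 16 clusters of whole mesenchyme with at least 20 cells, the genes whose pattern was most like the mean of the 10 were Kcnmb1 (r = 0.980), Stum, Cap2, Slc2a4, Lmod1, Trpc6, Dstn, Myocd, Fbxl22 and Tpm1 (r = 0.938). Kcnmb1 encodes a subunit of the calcium-activated potassium channel of smooth muscle. Kcnmb1 and Fbxl22 are on the marker list that named smooth muscle-like cells. They, Stum, Slc2a4, Trpc6 and Dstn were among the genes open to the clustering, so their likeness may be partly set by it. Cap2, Lmod1, Myocd and Tpm1 were kept out of it. These correlations are a description over clusters of 1 library that share its depth and free RNA. By the same measure Acta2 was most like Tagln (r = 0.965), Actg2 most like Cnn1 (0.958) and Myl9 most like Tpm2 (0.968), in each case both ways. Of the others Myh11 was most like Acta2 (0.951), Mylk most like Tagln (0.961), Smtn most like Mylk (0.817) and Des most like Myh11 (0.866).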

How the data were processed

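The authors deposited raw UMI count matrices of every barcode for the 3 libraries, made with Cell Ranger 3.0.2 on mm10, per the submitters' processing notes. Per the labels, 8000 cells were loaded on a 10x Genomics 3′ kit. Cells are barcodes with 1000 or more UMIs and 500 or more genes, of whose UMIs no more than 20% were mitochondrial. Scrublet (scanpy 1.11.5) marked 0.0294% to 0.0621% of cells and had not worked, so no doublets were removed and an alternative left out the 6% of cells with the highest scores.

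Genes were divided at random. The 10 contractile genes and 5 further lists were kept out of the clustering, which used 15565 genes and all 141 markers of 17 lists (2000 variable genes, 30 principal components, 15 neighbours, Leiden resolution 1). A cluster was named from markers raised 1.5-fold with at least 20 CPM, 3 or more being needed.

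Counts were summed per library and class (at least 20 cells) and tested in 1 fit of 8 sums with edgeR 4.0.16 (TMM, filterByExpr, the library as a block, the quasi-likelihood test, and Benjamini-Hochberg adjustment at 0.05). Its common biological coefficient of variation came to 0.121 with 3 residual degrees of freedom. The sums share a library, which is the block. On counts simulated without library effects, with genes changed in the Cd81-high sums only, the fit recovered the changed genes. That was checked for Cd81-high over Cd81-low cells alone, so it does not bear on the telocyte-like comparisons. Each p-value reflects spread among these libraries alone, and that spread may be technical. Classes in 1 library have exact Poisson or binomial 95% intervals and no test, and the fold count ran over genes with at least 10 UMIs in either class and called those with at least 10 in the higher one.

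Free RNA was read from droplets with 10 to 100 UMIs. Its share of a class is the ratio of foreign marker genes in the class to those in the empty droplets. Likeness used log2(CPM + 10). All 10 contractile genes were named, and from each other list up to 3 genes per comparison with the largest changes in the same direction in every library. A result that this rule names is not reported here. Alternatives were DESeq2 1.42.0, filters, clustering, depth, free RNA and leaving out each library. Leaving out GFP-low replicate 1 or whole mesenchyme leaves 1 telocyte-like sum. The members and lists were chosen with earlier results of these data known.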

Additional observations from a re-analysis of the deposited data

Results flagged for a closer look

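The gap between Cd81-high and Cd81-low fibroblasts differed between the GFP-low libraries and whole mesenchyme for 3 of the 9 contractile genes that could be tested. A term for class by group was added to edgeR's quasi-likelihood fit of the 6 fibroblast sums after seeing the data, and it leaves 1 residual degree of freedom. Whole mesenchyme is 1 library, so its side has no spread between libraries, and group cannot be told apart from library. Counts by the threshold of this fit are therefore description only, and sizes alone are given by gene. Of 6276 genes, 0.255% had a lower and 1.85% a higher Cd81-high over Cd81-low difference in GFP-low than in whole mesenchyme. For Acta2 the log2 difference was -4.10 in GFP-low and -2.09 in whole mesenchyme, a change of -2.02. For Myh11 the values were -4.73 in GFP-low and -1.42 in whole mesenchyme, a change of -3.30. For Tagln they were -2.98 in GFP-low and -1.90 in whole mesenchyme, a change of -1.08. Among the genes of the other lists named for this comparison, Pdlim3 changed by -2.06 and Atf3 by 1.05. In both groups of libraries the 3 contractile genes were lower in Cd81-high cells. Acta2 in empty droplets was 38.6 and 32.4 CPM in GFP-low and 559 CPM in whole mesenchyme, beside 7.72 and 4.25 CPM in GFP-low and 29.0 CPM in whole mesenchyme in Cd81-high cells. The part of free RNA in these differences was not tested.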

How the results depend on the processing

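Across 462 values of the 10 genes under alternatives, 403 kept direction and side of the threshold, 43 lost the call, 14 gained it and 2 reversed, both in genes that did not pass (Cnn1, telocyte-like over Cd81-low, 0.40 without the replicate block; Actg2, telocyte-like over Cd81-high, -4.55 without whole mesenchyme, in a range of -4.55 to 0.87 over the libraries left out). The fit with the library block called 6 higher and 1 lower, 7 higher and 1 lower, and 0 higher and 9 lower in the 3 comparisons in the order of the text. Without the replicate block it called 5 and 1, 7 and 0, and 0 and 5. Subtracting free RNA left 1, 3 and 3 of the higher, higher and lower calls. The lower call for telocyte-like over Cd81-low cells, which is Des, became 0 without whole mesenchyme, and that over Cd81-high cells became 0 also with clusters formed on all genes. Leaving out each library gave 4 to 7 higher and 0 to 1 lower, 6 to 7 and 0 to 1, and 0 to 1 and 7 to 8. In Cd81-high over Cd81-low cells 1 gene, Myl9, was called higher with no filter on low counts, without whole mesenchyme, at resolution 2, with clusters on all genes, with at least 2000 UMIs and at most 10% mitochondrial UMIs, and with the highest doublet scores removed. Sums of at least 15 cells, added after seeing the data, gave 7 and 1, 7 and 1, and 0 and 8. There, with free RNA subtracted and without whole mesenchyme, 27 of the 30 values were tested, and 24 in thinned cells. A call can thus also be absent because the gene failed the filter on low counts.

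The share of UMIs in smooth muscle-like cells (3.16%) was 2.76% in thinned cells, 3.30% and 3.29% with free RNA subtracted, 3.09% with clusters on all genes, 3.54% under the strict cell filter and 3.48% without the highest doublet scores. In pericyte-like cells (1.53%) these were 1.27% thinned, 1.64% with free RNA subtracted, 0.937% under the strict filter and 1.88% without the highest doublet scores. In telocyte-like cells (0.242%) it was 0.20% thinned, 0.290% at resolution 2, 0.227% with clusters on all genes, 0.258% under the strict filter and 0.247% without the highest doublet scores. Low counts limit Actg2 and Cnn1 outside muscle. The causes were not tested.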
